A study of Mus musculus with 16 samples.

Results

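The question was whether deleting the glucocorticoid receptor (GR) changed the same genes in white and in brown fat. The measure was the genotype by depot interaction, which is the knockout effect in brown adipose tissue (BAT) minus the knockout effect in white adipose tissue (WAT), so that a value above 0 means a more positive effect in BAT. The members were the named genes that 3 or more of 4 arrays showed well above background, both in some WAT group and in some BAT group. There were 15359 of them among 16677 named genes and 25107 features tested. A further 1159 named genes were above background in WAT only and 159 in BAT only.

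The arrays carried total RNA of female mice, with 4 arrays each of WAT control, WAT knockout, BAT control and BAT knockout. Knockout mice had an adipose-specific deletion of GR, and controls were wild-type. The Cre driver, the age of the mice and the site of the white fat were not given in the sources used here, nor whether WAT and BAT came from the same animals. WAT knockout arrays 1 and 2 differed by an SD of 0.0930 on the log2 scale, 1.03 times the spot noise, against at least 2.03 times in the other 119 pairs, and were counted as 1 sample (WAT knockout 1-2), which left 15 samples and n = 3 in that group. Levels are log2 of the processed signal relative to the 75th percentile of the array, which was 298 to 1035 intensity units.

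GR, encoded by Nr3c1, is a nuclear receptor that binds glucocorticoid hormone, moves to the nucleus and raises or lowers the transcription of its target genes. In white fat it is known for its part in adipocyte differentiation, lipid storage and lipolysis, and in brown fat for restraining thermogenic genes. The enzyme encoded by Hsd11b1 regenerates active hormone inside the cell, so that receptor and enzyme together set how strongly a depot responds.

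No member passed the interaction test, while 11 members passed for an effect averaged over both depots. Of all features 1 was called in the interaction (0.00398%, limma with Benjamini-Hochberg adjustment, adjusted p under 0.05). It was Slc6a2, the noradrenaline transporter gene, which is no member because it was above background in WAT controls only. Its WAT level was at least 1.86-fold lower in knockouts, and in BAT it was not well above background in either group, so that its BAT effect was not measured and its fitted interaction rests on background values. The smallest adjusted p of a member was 0.284. At an unadjusted p under 0.05 there were 935 members above 0 (6.09% of them, against 5.09% of all features) and 917 below 0 (5.97%, against 5.34%). The 95% interval of a member's interaction reached 0.895 to either side in the median, and 58.2% of members had an interval of less than 1 to either side, so that the 15 samples limit which differences between depots could be detected.

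WAT knockout samples differed widely among themselves, and the count of interactions changed when WAT knockout 4 was left out. The median SD over members was 0.57 in WAT knockouts, 0.32 in WAT controls, 0.15 in BAT controls and 0.32 in BAT knockouts. Without WAT knockout 4, 3231 members passed the interaction (2169 above 0 and 1062 below 0) with 2 samples left in the group. That is 3231 of 15359 members, against 4062 of 25107 features. Without WAT control 2, 6 members passed, against 14 of all features. The 6 were Itln1, Prg4 and 4 defensin genes (Defa39, Defa22, Defa20 and Defa23). No member passed when any other single sample was left out.

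Marker genes of other cells differed between these samples. Each gene's log2 deviation from its own mean over the samples was taken, and a list's level is the median of these deviations. The B cell list stood at 5.23 and 4.99 in WAT knockouts 1-2 and 3 but at -1.35 in WAT knockout 4, and the WAT controls 1 to 4 stood at 0.08, 0.08, 3.90 and 3.33. The adipocyte list stood at -2.32, -1.57 and 0.80 in the same knockouts and between -0.30 and 0.27 in WAT controls. In BAT the adipocyte list lay between 0.28 and 0.44 in all 8 samples. In bulk tissue fewer cells of a type and less RNA per cell cannot be told apart, and the part of cell content in the results was not tested. With the mean level of the B cell and the T and NK cell lists as a lymphocyte covariate, 167 members passed the interaction, 137 above 0 and 30 below 0. That is 167 of 15359 members, against 215 of 25107 features.

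**Figure D1:**
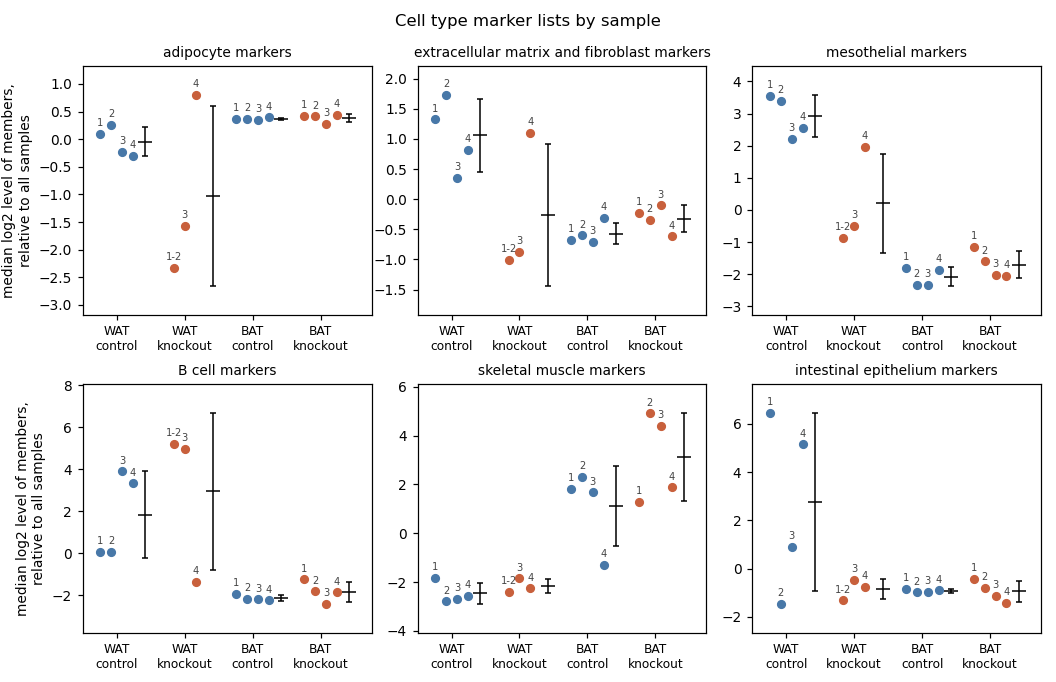
Level of 6 marker lists in each of the 15 samples (median log2 deviation of the members, points numbered by sample, with mean and SD beside each group). WAT knockout 4 stands at 0.80 in adipocyte markers and at -1.35 in B cell markers, while WAT knockouts 1-2 and 3 stand at -2.32 and -1.57 and at 5.23 and 4.99.

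The targeted gene was lower in knockouts of both depots. Nr3c1 stood at 1.93, 2.56, 2.0 and 2.25 in WAT controls and at 1.64, 1.36 and 1.58 in WAT knockouts 1-2, 3 and 4. Its BAT levels were 2.33, 2.40, 2.53 and 2.70 in controls and 1.30, 1.30, 1.45 and 1.76 in knockouts. Knockouts lay below controls in both depots with no overlap, WAT knockout 4 included. The averaged effect was -0.85 ± 0.13 (SE, 1.80-fold, limma adjusted p = 0.0393). The interaction was -0.38 ± 0.26 (adjusted p = 0.645), with a 95% interval from -0.94 to 0.19. The array held 3 further probes of Nr3c1, and over the 4 probes the effect ranged from -1.89 to -0.40 in BAT and from -0.66 to 0.24 in WAT. Which exons the probes cover was not analysed here. The WAT effect was therefore positive for 1 probe and negative for 3, while the BAT effect was negative for all 4. The probe with the value of -1.89 was well above background on 1 of 4 BAT knockout arrays.

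Among the genes that turn the hormone on, Hsd11b1 fell on average over both depots. Its level in the BAT controls was 5.35, 5.72, 5.30 and 5.63, against 3.03, 3.20, 3.64 and 3.35 in knockouts. In WAT it was 3.74, 3.70, 3.97 and 3.93 in controls and 2.41, 2.39 and 3.76 in knockouts 1-2, 3 and 4. The BAT groups did not overlap, whereas WAT knockout 4 lay among the WAT controls. The averaged effect was -1.59 ± 0.20 (3.01-fold, limma adjusted p = 0.0140), the BAT effect was -2.20 ± 0.27 (adjusted p = 0.0342) and the WAT effect was -0.98 ± 0.29 (adjusted p = 0.212). The interaction of -1.22 ± 0.40 did not pass (adjusted p = 0.377).

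Other falls passed for the averaged effect in genes of differing roles. Leo1, a subunit of the PAF1 complex of transcription elongation, stood at 1.09, 0.65, 0.42 and 0.58 in WAT controls and at 0.05, -0.12 and -0.23 in WAT knockouts. The BAT levels were 1.06, 0.67, 0.79 and 0.88 in controls and 0.05, -0.07, 0.02 and 0.07 in knockouts. The groups did not overlap in either depot, and the effects were close to equal, at -0.78 ± 0.18 in WAT and -0.83 ± 0.17 in BAT (averaged effect -0.81 ± 0.12, limma adjusted p = 0.0393). The interaction of Leo1 was -0.05, with a 95% interval from -0.58 to 0.48.

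Msmo1, which encodes an enzyme of sterol demethylation, fell on average by 0.72 ± 0.12 (limma adjusted p = 0.0434). Its WAT controls lay at 3.0, 2.67, 2.67 and 2.81 and its WAT knockouts at 2.43, 2.31 and 2.76. Its BAT controls lay at 2.86, 2.95, 2.87 and 2.93 and its BAT knockouts at 1.60, 1.5, 1.97 and 1.88. Only the BAT groups were apart, with a BAT effect of -1.17 ± 0.16 (limma adjusted p = 0.0487), and the interaction of -0.88 ± 0.24 had an adjusted p of 0.357. The predicted gene Gm5662 fell on average by 1.10 ± 0.18 (limma adjusted p = 0.0427), and again the BAT groups were apart and the WAT groups overlapped. Its other probe was well above background on 1 array only.

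For the remaining 3 falls the averaged effect came mostly from WAT. Padi4, a peptidylarginine deiminase of granulocytes, differed by -2.71 in WAT and -0.55 in BAT (averaged effect -1.63 ± 0.22, limma adjusted p = 0.0174). Prg4, which encodes the lubricating protein lubricin and is also made by mesothelium, differed by -3.21 and -0.05 (averaged effect -1.63 ± 0.27, adjusted p = 0.0434). Rian, an imprinted noncoding RNA, differed by -3.96 and -0.74 (averaged effect -2.35 ± 0.36, adjusted p = 0.0393). An averaged effect past the threshold therefore does not by itself show an effect in each depot. Rian was well above background on 2 of the 4 WAT knockout arrays. Of the other Padi4 probes, 1 differed by -2.53 in WAT and the other by -0.48.

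Zfp949, a zinc finger gene, rose in knockouts. It stood at -1.04, -1.02, -1.27 and -1.32 in WAT controls and at 1.03, 0.91 and 0.41 in WAT knockouts. Its BAT levels were -1.11, -0.80, -1.22 and -1.23 in controls and -0.17, -0.59, -0.25 and -0.31 in knockouts. Every knockout lay above every control of its depot. The averaged effect was 1.35 ± 0.13 (2.56-fold, limma adjusted p = 0.00233), the smallest adjusted p of any member. The effect was 1.95 ± 0.19 in WAT (adjusted p = 0.00150) and 0.76 ± 0.18 in BAT (adjusted p = 0.180), and the interaction of -1.18 ± 0.27 had an adjusted p of 0.347.

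Setd4, a SET domain methyltransferase gene, rose on average, by close amounts in both depots. Its levels were -0.36, -0.47, -0.11 and -0.32 in WAT controls and 0.88, 0.85 and 0.16 in WAT knockouts. In BAT the controls stood at 0.31, 0.08, 0.16 and 0.17 and the knockouts at 1.38, 1.15, 1.03 and 1.33. Groups were apart in both depots, with effects of 0.95 ± 0.19 and 1.04 ± 0.18 (averaged effect 1.0 ± 0.13, 1.99-fold, limma adjusted p = 0.0166). The interaction was 0.09, with an interval from -0.48 to 0.66. The transcript 4933439C10Rik rose as well, by 0.57 in WAT and 0.93 in BAT (averaged effect 0.75 ± 0.12, adjusted p = 0.0393).

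Of the members, 3 were called above 0 in the averaged effect (0.0195% of them) and 8 below 0 (0.0521%). Among all features the calls above 0 made up 0.0358% and those below 0 made up 0.0398%. Within slides 1 to 4 the averaged effect of Nr3c1 was -0.83, -1.09, -0.65 and -0.76, where slides 2 and 4 held the WAT knockout arrays counted as 1 sample. The count moved with the samples: without WAT knockout 4 it was 5512 of 15359 members, against 8350 of 25107 features. Without any other single sample it lay between 1 and 14 members. With slide as a fixed block 2 members passed, against 3 of all features. With normexp background correction of the raw signal in place of the processed signal it was 0, as it was over all features.

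**Figure D2:**
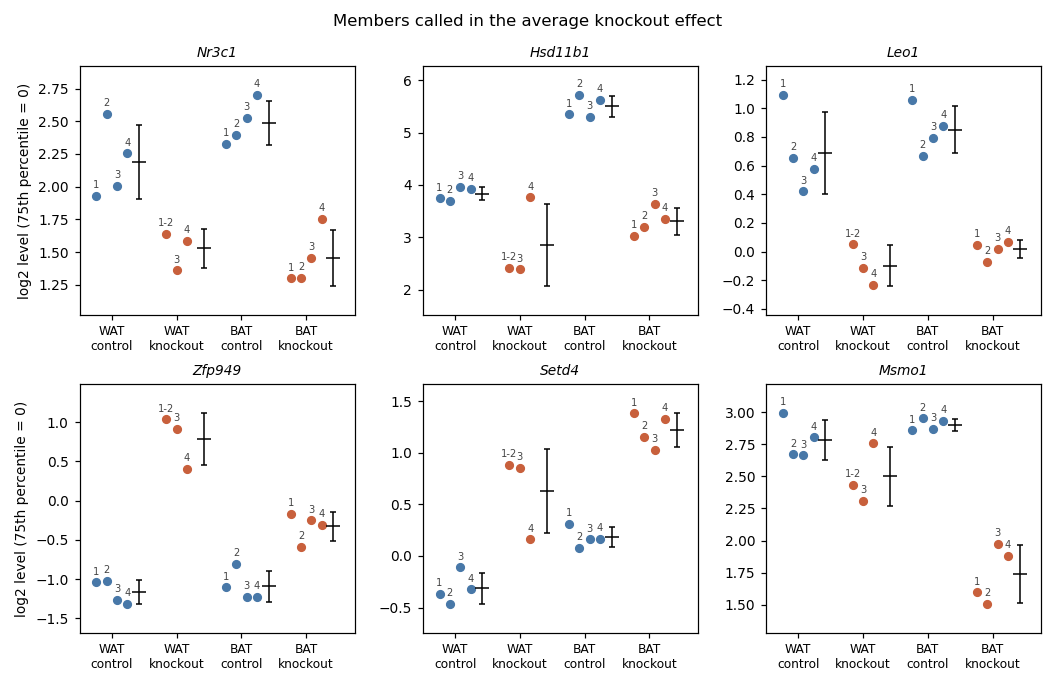
Log2 level of 6 members called in the averaged knockout effect in each of the 15 samples (points numbered by sample, with mean and SD beside each group). Nr3c1, Leo1, Zfp949 and Setd4 have no overlap between control and knockout in either depot, while for Hsd11b1 and Msmo1 WAT knockout 4, at 3.76 and 2.76, lies among the WAT controls.

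The promoters of these genes are shown because they differed in knockouts of a DNA-binding receptor. The RefSeq promoters of GRCm38.p6, windows around the start of each gene, held 8 of the 11 genes. They were searched on both strands for TGTTCT, an arm of the glucocorticoid response element, and 1 of the 8 held a match. The same search matched 19% of all 32851 promoters and 13.8% of the promoters of members. Hsd11b1 (chr1:193242311-193242610, minus strand) had no match in this window, and Rian (chr12:109603695-109603994, plus strand) had 1, at base 152. The 24 genes named for the interaction included Prg4, Padi4 and Zfp949 of the 11 above, where Padi4 and Zfp949 had no match. Of the others 14 had a RefSeq promoter, and 3 of them held a match: F10, Ppbp and Oasl2. Oasl2 (chr5:114896684-114896983, plus strand), shown as the gene of these 3 apart in both depots, had its match at base 242. Capitals mark the match in the sequences, which run 5′ to 3′. The match is a description of letters in this window.

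Hsd11b1 promoter: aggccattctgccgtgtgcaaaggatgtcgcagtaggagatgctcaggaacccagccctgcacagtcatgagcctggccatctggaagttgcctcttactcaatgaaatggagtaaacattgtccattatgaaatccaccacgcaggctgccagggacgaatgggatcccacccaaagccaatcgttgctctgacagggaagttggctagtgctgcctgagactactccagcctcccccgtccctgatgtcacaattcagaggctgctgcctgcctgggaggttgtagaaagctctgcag
Rian promoter: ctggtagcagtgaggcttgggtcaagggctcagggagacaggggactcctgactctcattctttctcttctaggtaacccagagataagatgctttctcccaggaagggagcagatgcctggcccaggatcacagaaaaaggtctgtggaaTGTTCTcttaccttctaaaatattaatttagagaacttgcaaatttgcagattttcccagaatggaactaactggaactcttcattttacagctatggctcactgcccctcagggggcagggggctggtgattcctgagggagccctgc
Oasl2 promoter: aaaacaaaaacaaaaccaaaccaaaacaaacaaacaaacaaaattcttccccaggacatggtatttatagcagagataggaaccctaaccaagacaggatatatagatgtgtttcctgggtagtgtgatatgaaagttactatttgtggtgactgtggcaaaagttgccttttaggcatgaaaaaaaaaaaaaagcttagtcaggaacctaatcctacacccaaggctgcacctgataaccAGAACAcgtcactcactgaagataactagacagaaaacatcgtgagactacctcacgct

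Called genes included, 158 members had knockouts apart from controls in both depots in the same direction, 141 higher and 17 lower. That is 1.03% of members, against 0.972% of all features, of which 225 were higher and 19 lower. The count was 49 with each array scaled to its median, 60 with normexp background correction and 1627 without WAT knockout 4. The next genes by p-value did not pass. The potassium chloride cotransporter gene Slc12a7 differed by 0.60 in WAT and 0.42 in BAT (averaged effect adjusted p = 0.0619 with limma). Itpr2, an inositol trisphosphate receptor of calcium release, differed by 0.76 and 0.61 (adjusted p = 0.0745), while 1 of its 4 other probes differed by 0.22 and -0.31. Vamp5, a vesicle membrane protein gene, differed by 0.57 and 0.63 (adjusted p = 0.0963). The protocadherin Pcdh17 differed by 0.53 and 1.04 (adjusted p = 0.0554), and Tmem86a, a lysoplasmalogenase gene, by 0.89 and 1.24 (adjusted p = 0.0619). Fam167b, Gm3002, Pcnt and Zfp865 differed by between 0.50 and 1.11 in each depot. Other probes of 3 of them did not follow: Zfp865 differed by 0.60 and -0.29, Gm3002 by 0.04 and 0.82, and Pcnt by 0.37 and 0.07.

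On the lower side, the core clock gene Clock differed by -0.79 in WAT and -0.40 in BAT (averaged effect adjusted p = 0.116 with limma), although another of its 3 probes differed by 0.10 and -0.18. Idi1, of isoprenoid and cholesterol synthesis, differed by -0.36 and -1.0 (adjusted p = 0.121), while its other probe differed by 0.02 and -1.68. Cox15, needed for the haem of cytochrome oxidase, differed by -0.53 and -0.68 (adjusted p = 0.123). Its BAT knockouts were widely spread, at 0.23, 0.62, 1.2 and 1.36, below BAT controls of 1.51 to 1.56. Mpzl2, a cell adhesion gene, differed by -1.65 and -0.84 (adjusted p = 0.101). Gm4788, 2810459M11Rik, Tmem41b, Tprkb, Mkrn1 and Lmtk2 differed by between -0.36 and -1.68 in each depot, and none passed. Another probe of Mkrn1 differed by 0.31 and 0.28. For Tmem41b, Tprkb and Lmtk2 as well, another probe did not show the fall in WAT. It differed by 0.03 and -0.66 for Tmem41b, by 0.11 and -0.21 for Tprkb and by 0.16 and -0.46 for Lmtk2.

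The effects of the depots were weakly alike over genes. Across the 15359 members the WAT and BAT effects had a Pearson r of 0.170 and a Spearman rho of 0.218, and 58.4% had the same sign. These are descriptions over genes that share the same samples. The WAT effects had an SD of 0.67 and the BAT effects an SD of 0.44, and 63.5% of members had the larger effect in WAT. Without BAT knockouts 1 and 2, which had the lowest signal, r was 0.0212. Taken singly against the WAT control mean, WAT knockouts 1-2, 3 and 4 had an r with the BAT effect of 0.174, 0.197 and -0.0787.

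**Figure D3:**
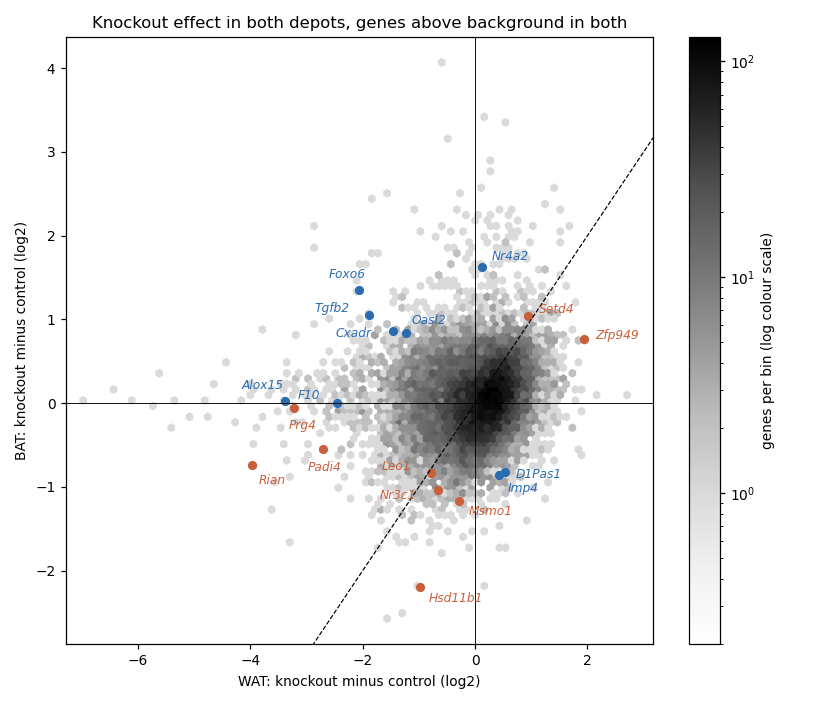
Knockout minus control in WAT (horizontal) against BAT (vertical), both in log2, for the 15359 members; grey shade gives the number of genes per bin on a log scale and the dashed line marks equal effects. Orange genes passed for the averaged effect, such as Hsd11b1 at -0.98 and -2.20; blue genes did not, such as Foxo6 at -2.06 and 1.35.

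The 12 members with the smallest interaction p above 0 had lower WAT knockouts, and for some of them higher BAT knockouts. None passed, with adjusted p from 0.284 to 0.347 (limma). Oasl2, an interferon-induced gene of the oligoadenylate synthetase family, stood at 1.66, 1.25, 0.83 and 1.17 in WAT controls and at -0.29, -0.38 and 0.67 in WAT knockouts. The BAT levels were -1.21, -1.14, -1.26 and -0.84 in controls and 0.17, -0.41, -0.44 and -0.41 in knockouts. The groups were apart in both depots in opposite directions, with effects of -1.23 ± 0.28 and 0.84 ± 0.26 and an interaction of 2.07 ± 0.38 (adjusted p = 0.284).

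Tgfb2, a ligand of the transforming growth factor beta family, stood at -0.74, -0.14, -1.76 and -1.46 in WAT controls and at -3.38, -3.25 and -2.09 in WAT knockouts. Its BAT levels were -3.49, -3.90, -4.27 and -3.95 in controls and -2.73, -2.52, -2.85 and -3.27 in knockouts. Again the groups were apart in opposite directions, and the interaction was 2.94 ± 0.53 (limma adjusted p = 0.284).

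Foxo6, a forkhead transcription factor, stood at 0.70, 0.00, -1.02 and -0.31 in WAT controls and at -3.03, -2.47 and -1.15 in WAT knockouts. The BAT levels were -2.10, -1.97, -1.45 and -2.40 in controls and -0.91, 0.01, -0.49 and -1.11 in knockouts. WAT knockout 4 lay just under the lowest WAT control, and the interaction was 3.41 ± 0.63 (limma adjusted p = 0.284). Cxadr, a cell adhesion protein of tight junctions, differed by -1.46 in WAT and 0.87 in BAT, with groups apart in both. Of its further probes, 1 gave an interaction of 2.16 and the other 0.06, the latter well above background on 1 of 4 WAT knockout arrays. Hs3st1, a heparan sulfate sulfotransferase gene, differed by -0.80 and 0.64 with no overlap in either depot.

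The other 7 of these genes were lower in WAT knockouts, with overlapping BAT groups. They were Prg4, Alox15, F10, Padi4, Ppbp, Cma1 and Scn3b, with WAT effects between -3.39 and -1.69 and BAT effects between -0.55 and 1.0. Prg4 is a gene of the mesothelial list. Cma1, Padi4 and Alox15 belong to the granulocyte and mast cell list, and Ppbp is a chemokine gene of platelets. Their BAT levels were far below those of WAT controls for some genes: F10, the coagulation factor X gene, stood at -0.43 to 0.85 in WAT controls and at -5.12 to -3.72 in all BAT samples. Only 2 of the 4 BAT knockout arrays had F10 well above background, and only 2 of the 4 WAT knockout arrays had Ppbp well above background. For Cma1, the mast cell chymase gene, WAT knockout 4 at -1.29 was nearest to the controls, against -3.44 and -2.75 in WAT knockouts 1-2 and 3. A second detected probe of Scn3b, a sodium channel subunit gene, differed by -0.94 in WAT and 0.11 in BAT.

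Of the 12 members with the smallest p below 0, 11 had higher WAT knockouts and lower BAT knockouts. D1Pas1, a DEAD-box RNA helicase gene, stood at -3.26, -3.42, -3.14 and -3.35 in WAT controls and at -2.78, -2.68 and -2.81 in WAT knockouts. Its BAT levels were -1.54, -1.57, -1.22 and -1.85 in controls and -2.54, -2.51, -2.23 and -2.19 in knockouts. The 3 WAT knockouts lay close together, and the interaction was -1.36 ± 0.24 (limma adjusted p = 0.284). Its other probe differed by 0.13 and -0.29, and was well above background on 1 of 4 WAT knockout and 2 of 4 BAT knockout arrays.

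Gsk3b, a kinase of insulin and Wnt signalling, differed by 0.33 in WAT and -0.64 in BAT (limma adjusted p = 0.347), with no overlap in either depot. Its other probe differed by 0.05 and -0.54. The same opposite pattern held for Imp4, of ribosomal RNA processing (0.42 and -0.86), and for Cdc45, of DNA replication (0.64 and -0.74), whose WAT knockout 4 and WAT control 3 both rounded to -2.35. It also held for the kinase gene Sbk1, the mitochondrial import gene Grpel2 and the DNA repair gene Rad18. Tmem243, Actl6a and Glyctk overlapped in 1 depot. Zfp949, higher in knockouts of both depots, was the only gene of these 12 with effects of the same sign.

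All 24 genes, which were chosen by p-value on these arrays, passed without WAT knockout 4. With the lymphocyte covariate 12 of the 12 above 0 and 8 of the 12 below 0 passed. WAT knockout 4 was the knockout nearest to the WAT control mean for 11 of the 12 genes above 0 and for 9 of the 12 below 0.

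**Figure D4:**
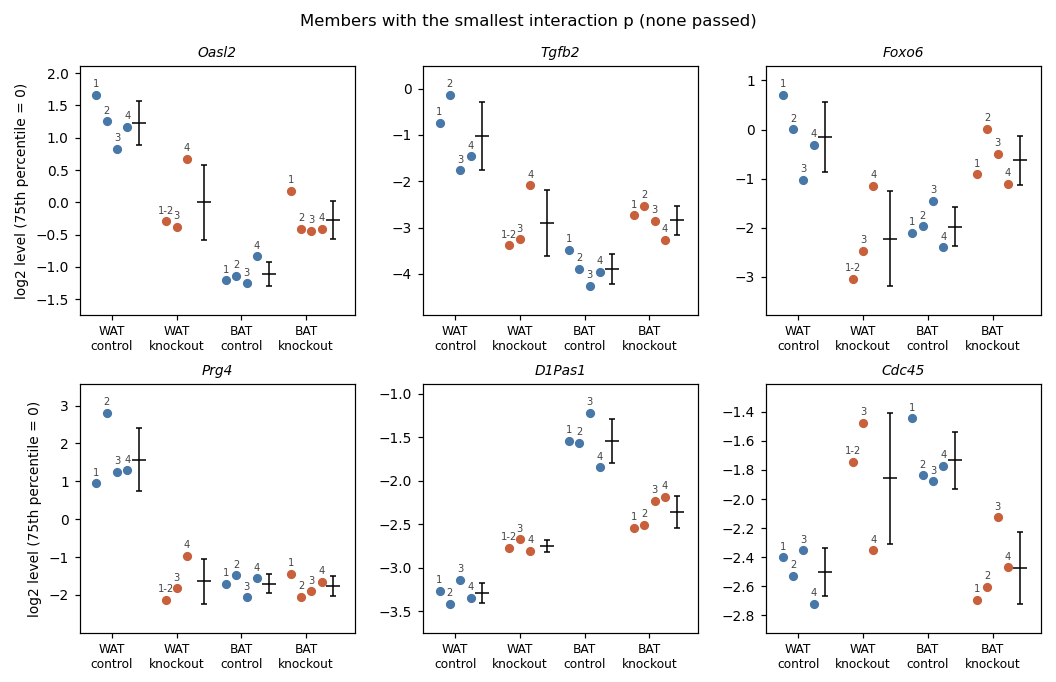
Log2 level of 6 members with small interaction p, none of which passed, in each of the 15 samples (points numbered by sample, with mean and SD beside each group). Oasl2, Tgfb2, Foxo6, D1Pas1 and, narrowly in WAT, Cdc45 are apart in opposite directions in WAT and BAT, and Prg4 is apart in WAT only.

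Over all 935 members above 0 at an unadjusted p under 0.05, 837 were lower in WAT knockouts and higher in BAT knockouts, and 71.7% had the larger effect in WAT. Their median effects were -0.96 in WAT and 0.48 in BAT. Of the 917 below 0, 827 were higher in WAT knockouts and lower in BAT knockouts, with median effects of 0.38 and -0.38. These directions follow in part from the choice by p-value and carry no test.

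In terms of overlap, 82 members were apart in both depots in opposite directions (0.534%, against 0.394% of all features). Of these, 69 were higher in WAT and lower in BAT knockouts and 13 the other way round, against 82 and 17 over all features. The count was 25 with each array scaled to its median, 39 with normexp background correction, 698 without WAT knockout 4 and 191 without BAT knockouts 1 and 2. A further 965 members were apart in WAT only (6.28%, against 6.33% of all features) and 2995 in BAT only (19.5%, against 16.6%). The shares among members were near those of all features for the same direction and for WAT only.

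Tested in each depot alone, 7 members passed in WAT (0.0456% of them, against 0.0597% of all features) and 3 in BAT (0.0195%, against 0.0159% of all features), and none in both. In WAT, Zfp949 rose and Prg4, Alox15, F10, Padi4, Cma1 and Rian fell. In BAT, Hsd11b1 and Msmo1 fell and Nr4a2, an immediate early nuclear receptor gene, rose. Nr4a2 stood at 1.26, 1.66, 0.96 and 1.51 in BAT controls and at 3.07, 3.14, 2.62 and 3.09 in BAT knockouts, against -1.05, -1.03, -1.48 and -1.48 in WAT controls and -1.46, -1.30 and -0.61 in WAT knockouts. Its BAT groups were apart and its WAT groups overlapped, yet the interaction of 1.5 ± 0.34 did not pass (limma adjusted p = 0.347). None of these 10 genes passed the test of a difference between the depots.

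The gene lists were described by the median interaction of their members. The median of all features was 0.24 for the WAT effect, 0.10 for the BAT effect and -0.14 for the interaction, and list medians are given relative to it. Under normexp the last became 0.16, so that directions are relative ones. No member of any of the 29 lists was called in the interaction (0.00398% of all features).

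Lists of fat cell function lay above 0, and their WAT medians were below those of all features. The 22 adipocyte markers had a median of 1.15, and 22 of 22 were above 0 before the shift, but 1 had an unadjusted p under 0.05 (5.09% of all features). Fatty acid and triglyceride synthesis stood at 0.95 (24 of 26 members above 0), and lipolysis, lipid droplet and lipid uptake at 1.10 (20 of 21). The synthesis list was also lower in BAT, with a relative median of -0.52 and 21 of 26 members lower. Its level was 0.90 to 1.01 in BAT controls and 0.35 to 0.51 in BAT knockouts. In WAT that list stood at -0.45 to -0.09 in controls and at -2.70, -1.91 and 0.37 in knockouts 1-2, 3 and 4. In Mlxipl, the carbohydrate-sensing transcription factor ChREBP, WAT controls lay at 4.46, 4.34, 4.00 and 4.28 and WAT knockouts at 1.17, 1.96 and 4.68, while all 8 BAT samples lay between 5.56 and 6.28. WAT knockouts 1-2 and 3 were below and WAT knockout 4 above all WAT controls. Pnpla2, the adipose triglyceride lipase gene, had the same order, with WAT knockouts at 3.99, 4.85 and 6.74 and WAT controls between 5.99 and 6.53. On slide 3, which held WAT knockout 4, the relative medians of these 3 lists were -0.51, -0.68 and -0.89.

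Mitochondrial lists were nearer to 0. Oxidative phosphorylation had a relative median of 0.54 (35 of 40 above 0), and its level was 1.11 to 1.22 in all 8 BAT samples. Fatty acid oxidation and the TCA cycle stood at 0.54 and branched-chain amino acid breakdown at 0.43, with relative medians of -0.94 and -1.04 in WAT and of -0.32 and -0.64 in BAT. Thermogenic genes stood at 0.50, with relative medians of -0.83 in WAT and 0.09 in BAT. Their level was 1.84 to 2.13 in BAT controls and 1.68 to 2.27 in BAT knockouts. WAT controls stood at -2.32 to -1.67 and WAT knockouts 1-2, 3 and 4 at -3.60, -3.04 and -1.54. Under normexp the relative medians of the thermogenic and branched-chain lists were -0.00 and -0.17. On slide 3 all 4 medians lay below 0, from -0.75 to -0.34.

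Cholesterol synthesis and uptake had close medians in both depots, but its levels were apart in BAT only. They were 0.39 to 0.67 in BAT controls and -0.26 to 0.02 in BAT knockouts. WAT controls stood at -0.14 to 0.20 and WAT knockouts 1-2, 3 and 4 at -0.73, -0.66 and 0.12. The list's relative median was -0.73 in BAT and -0.60 in WAT, and -0.16 in the interaction. There, 4 of 25 members had an unadjusted p under 0.05 below 0 (5.34% of all features). The interaction median was 0.13 without WAT knockout 4 and 0.03 without BAT knockouts 1 and 2, and it was -0.77 on slide 3. Msmo1 was the called member, in the averaged effect. Sqle, the squalene epoxidase gene, stood at 2.53, 3.0, 1.77 and 2.01 in BAT controls and at -0.12, 0.31, 1.41 and 0.72 in BAT knockouts, with WAT samples between 0.78 and 1.36. Its groups were apart in BAT and overlapped in WAT, and its interaction was -1.60 ± 0.47 (limma adjusted p = 0.372).

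Glucocorticoid-induced genes, a list of known responders to the hormone, had a relative median of 0.64, from -0.70 in WAT and 0.08 in BAT. It was 1.0 without WAT knockout 4, 0.41 without WAT knockout 3, 0.14 under normexp and -0.00 on slide 3. Of 31 members 24 were above 0, 5 at an unadjusted p under 0.05 (5.09% of all features), and 1 was below 0 at that level (5.34% of all features). Cebpd, an early adipogenic transcription factor, stood at 4.08, 3.76, 3.63 and 3.60 in WAT controls and at 3.07, 2.95 and 3.59 in WAT knockouts. The BAT levels were 1.88, 1.70, 1.84 and 1.85 in controls and 2.14, 2.86, 2.26 and 2.05 in knockouts. The groups were apart in opposite directions, in WAT by a narrow margin, and the interaction was 1.07 ± 0.30 (limma adjusted p = 0.371). The list of receptors and hormone activation held 4 members, with a relative median of -0.23, and 2 of the 4, Nr3c1 and Hsd11b1, were called in the averaged effect.

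Stromal and vascular lists lay above 0 as well. Extracellular matrix and fibroblast markers had a relative median of 1.58, 29 of 30 above 0 and 15 at an unadjusted p under 0.05 (5.09% of all features). Pdgfra, a receptor of mesenchymal cells, differed by -1.37 in WAT and 0.28 in BAT, and Lum, a matrix proteoglycan, by -1.65 and 0.13. Mesothelial markers, from cells that cover visceral fat, had a median of 3.01 with 7 of 9 members at an unadjusted p under 0.05, and their level was 2.22 to 3.56 in WAT controls, -0.86, -0.49 and 1.97 in WAT knockouts, and -2.34 to -1.15 in BAT. Endothelial markers stood at 1.02 with 19 of 19 above 0, at 1.72 without WAT knockout 4, at 0.63 without WAT knockout 1-2 and at -0.65 on slide 3. Aqp1, a water channel of vessel walls, differed by -0.57 and 0.83, with BAT groups apart.

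Immune lists differed in sign. B cell markers had a relative median of -0.54 and T and NK cell markers of -0.46, and both turned to above 0, at 0.61 and 0.30, without WAT knockout 1-2. They were also above 0 without WAT knockout 3, at 0.34 and 0.05. Without WAT knockout 4 they were -2.78 and -2.50. The B cell median was 0.02 without WAT control 1 and 0.03 without WAT control 2. Macrophage markers stood at 0.64, with 7 of 20 members above 0 at an unadjusted p under 0.05 (5.09% of all features). The haemoglobin scavenger receptor Cd163 stood at 2.24, 2.16, 0.73 and 1.01 in WAT controls, at -1.75, -1.19 and 0.67 in WAT knockouts, and between -0.84 and 0.20 in BAT. Its WAT groups were narrowly apart, with WAT knockout 4 nearest to the controls. Granulocyte and mast cell markers stood at 0.70. Of 16 members, 7 were above 0 (5.09% of all features) and 4 below 0 (5.34% of all features) at that unadjusted p.

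The interferon response had a relative median of 0.52, with 7 of 26 members above 0 at an unadjusted p under 0.05 (5.09% of all features). Beside Oasl2, Rsad2, the antiviral gene viperin, stood at 0.45, 0.48, 0.22 and 0.15 in WAT controls and at -1.65, -1.35 and 0.08 in WAT knockouts. Its BAT levels were 1.10, 1.0, 1.16 and 1.14 in controls and 2.33, 1.68, 1.60 and 1.70 in knockouts. Both depots were apart, in opposite directions, and the interaction was 2.02 ± 0.45 (limma adjusted p = 0.347). On slides 1 to 4 it was 3.12, 2.70, 0.64 and 2.30, with WAT knockout 4 on slide 3. Its other 2 probes had smaller effects of the same signs.

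Markers of gut, muscle and red cells also had medians far from 0. The 18 intestinal epithelium markers had a relative median of 3.50, and their level was 6.45 and 5.14 in WAT controls 1 and 4, 0.91 in WAT control 3 and below 0 in the other samples. The 30 skeletal muscle markers stood at 2.02, with 30 of 30 above 0. Their level was -1.29 in BAT control 4 against 1.67 to 2.31 in the other BAT controls. BAT knockouts 1 to 4 stood at 1.28, 4.91, 4.41 and 1.88. The relative median of this list was 1.09 without BAT control 4 and -0.38 on slide 1. The 4 erythroid markers stood at 2.62, and at 0.57 on slide 3. Their level was 0.16 to 1.12 in WAT controls and -3.14, -2.01 and 0.10 in WAT knockouts 1-2, 3 and 4. In each of these lists the samples of a group lay far apart, and the part of such RNA in the results was not tested. Without WAT controls 1 and 4, no member passed the interaction and 1 passed the averaged effect.

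Imprinted genes stood at 1.05, with 16 of 17 above 0, and at 0.12 on slide 3. Their level was -0.02 to 0.56 in WAT controls and -1.25, -0.50 and 0.64 in WAT knockouts 1-2, 3 and 4. Meg3, a maternally expressed noncoding RNA of the same locus as Rian, differed by -1.33 in WAT and 0.71 in BAT, with BAT groups apart. Its interaction was -0.09 on slide 3, and its other probes gave interactions of 0.53 to 1.98. Nnat, an imprinted gene of adipocytes, stood at -0.94, -1.30, -1.60 and -0.40 in BAT controls and at 1.34, 0.23, 1.62 and 0.25 in BAT knockouts, with a WAT effect of 0.19 ± 0.61. The BAT groups were apart, and the interaction of 1.73 ± 0.83 did not pass (limma adjusted p = 0.49).

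Antioxidant enzymes stood at 0.56, close to the mitochondrial lists, and at -0.46 on slide 3. Of the remaining lists, circadian clock genes stood at 0.31, inflammatory mediators at 0.26, immediate early genes at 0.24 (-0.02 under normexp) and nerve and Schwann cell markers at 0.22 (-0.14 without WAT controls 1 and 4). Cell cycle genes stood at -0.14 and cytosolic ribosomal proteins at -0.01. Without WAT knockout 1-2 these last medians were 0.42 and 0.16, and the cell cycle median was -1.04 without WAT knockout 4. Pcna, the sliding clamp of DNA replication, differed by 0.57 in WAT and -0.50 in BAT, with WAT knockouts at 3.95, 3.65 and 2.29 and WAT controls from 2.17 to 3.17.

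**Figure D5:**
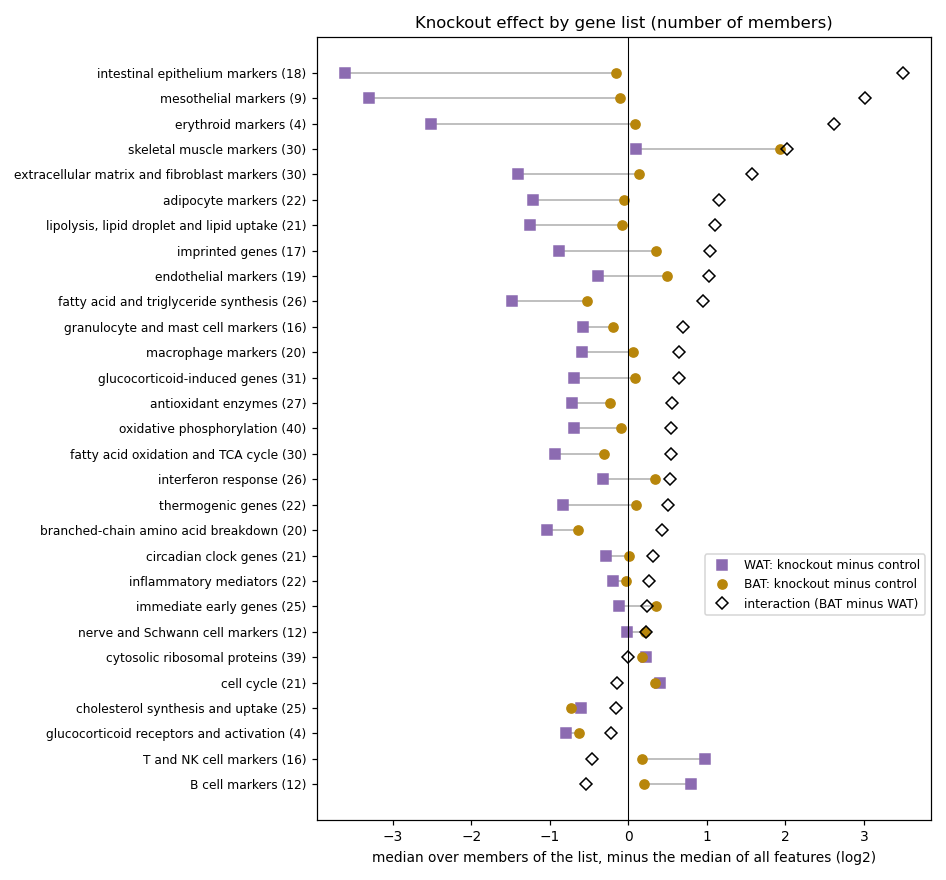
Median knockout effect of the members of 29 gene lists in WAT (squares) and BAT (circles), and median interaction (diamonds), each in log2 minus the median of all features; the number of members is in brackets. Intestinal, mesothelial, erythroid and muscle markers lie furthest right, at 3.50, 3.01, 2.62 and 2.02, and cholesterol synthesis has close values in both depots, at -0.60 and -0.73.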

How the data were processed

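Total RNA was hybridised to 1-colour Agilent arrays (Cy3), per the labels' protocols. The deposited files hold the authors' scanner output of Agilent Feature Extraction 12.0.0.7, per the file headers, with intensity per spot; the processed signal is background-corrected by that software. The deposited value table holds intensities that are not in log2, and it equals the processed signal of the arrays within a relative tolerance of 1e-04. Here, spots of a probe were averaged after control and outlier-flagged spots were left out (34 values missing), and log2 of the processed signal was scaled to the 75th percentile of each array. Of 41174 probes, 28223 carried 1 gene symbol. Features had to be well above background on at least 3 of 4 arrays of a group, and a gene was represented by 1 of its probes. WAT knockout arrays 1 and 2 were averaged.

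Effects were fitted with limma 3.58.1 in R 4.3.3 on all 4 groups (15 samples, 11 residual degrees of freedom), with p-values adjusted by Benjamini-Hochberg over all 25107 features; the scripts were tested on simulated data. The number of arrays limits the precision. The design text calls the replicates biological without naming animals, so p-values measure the spread between these samples. Every group had an array on all 4 slides, and array position and group cannot be told apart. Named genes were Nr3c1, the 12 members each way with the smallest interaction p, the 12 each way by averaged effect with no overlap in either depot and the same sign, and up to 2 members of each of 29 lists by interaction p; the members called in the averaged effect were added after their values were seen. Of these, 1 gene is not reported here. Members and lists were chosen with earlier results of these data known. Normexp correction (offset 50) used the median signal of each spot. Array weights per sample used limma's gene-by-gene method, as REML did not converge.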

Additional observations from a re-analysis of the deposited data

Results flagged for a closer look

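Some samples lay apart from the other 3 of their group by Dixon's criterion, which chance meets in about 1 of 20 groups. Here 5 of 141 groups of named genes and 3 of 87 groups of lists met it. The WAT knockouts, with n = 3, were left out of this search, so it says nothing on WAT knockout 4. In WAT controls, Alox15 was highest in control 2 at 1.16 and Clock was highest in control 2 at 1.84. In BAT controls, Cxadr was lowest in control 2 at -0.354 and Rad18 was lowest in control 4 at -2.12. In BAT knockouts, Oasl2 was highest in knockout 1 at 0.174. The cholesterol synthesis and uptake list was highest in WAT control 1 at 0.202, the oxidative phosphorylation list was lowest in BAT control 2 at 1.11 and the adipocyte list was lowest in BAT knockout 3 at 0.283.

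The fitted interaction of Slc6a2 was 3.19 on the log2 scale (limma adjusted p = 0.00374). WAT knockouts and both BAT groups were not well above background, so the value rests on background signal and its BAT effect was not measured.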

How the results depend on the processing

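Counts below give features called in the interaction, and features and members called in the averaged effect. No member was called in the interaction except where stated. The counts were 2, 33 and 19 with quantile normalization, 2 for the interaction with median scaling, and 0, 0 and 0 with normexp. Without a detection filter the averaged effect had 7 and 4 calls, and with detection in all 4 groups the interaction had 0. Slide as a block gave 0, 3 and 2. WAT knockouts 1 and 2 as separate samples gave 2, 334 and 174, array weights per depot 2, 6 and 4, and trend with robust fitting 0 for the interaction and 18 members for the averaged effect. Array weights per sample gave 7476 (4902 members), 12530 and 7508. The lymphocyte covariate gave 215 (167 members), 1045 and 580, and the muscle covariate 1 and 1 in the averaged effect. An adjusted p of 0.10 gave 2, 77 and 40. Chosen after seeing the data, leaving out WAT controls 1 and 4 gave 0, 2 and 1, and leaving out BAT knockouts 1 and 2 gave 0, 2 and 1.

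With a replicate block over all groups the counts were 0, 4 and 3. Same-numbered samples had deviations correlated at -0.435 to 0.341 (median 0.0945, 18 pairs), and the labels do not say what a number marks. The 4 same-numbered pairs of WAT and BAT controls (0.0504 to 0.223) each lay above the 12 pairs of differing number (-0.116 to 0.0420), while the 2 such knockout pairs were at -0.242 and 0.114, a hint from the data only. A random replicate block of genotype and number left 1, 19 and 11.

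The r between depots was 0.218 with normexp, 0.0754 and 0.228 with the lymphocyte and muscle covariates, 0.23 without WAT controls 1 and 4 and 0.0212 without BAT knockouts 1 and 2. Members apart in both depots in the same direction numbered 49 with median scaling, 60 with normexp and 295 without WAT controls 1 and 4. Those in opposite directions numbered 25, 39, 130 with every probe as a feature and 191 without BAT knockouts 1 and 2.

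Leaving out 1 sample at a time gave 1 to 4062 interaction calls (0 to 3231 members), 1 to 8350 averaged effect calls (1 to 5512 members), r of 0.1 to 0.205, and 167 to 1627 and 83 to 698 members apart in the same and in opposite directions. The highest counts came without WAT knockout 4. The interaction changed sign for Cd4 (0.086 with normexp, 0.73 with outlier spots kept and in the deposited value table), Dbh (0.097 with normexp) and Cry1 (0.10 with normexp). The averaged effect of Nr3c1 lost its call in 20 of 34 alternatives, Leo1 in 19, Setd4 in 13, Hsd11b1 in 6 and Zfp949 in 1; Msmo1 and 4933439C10Rik lost it in 22 each, Gm5662 in 21, Prg4 in 20, Padi4 in 11 and Rian in 20 of 33. The cause of these changes was not tested.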
